A study of Mus musculus with 100 samples.

Results

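The 7 genes that mark the contractile apparatus of slow-twitch (type I) muscle fibres, Myh7, Myl2, Myl3, Tnnc1, Tnni1, Tnnt1 and Myoz2, were described in knee joints of 3 mouse strains before and after a joint injury. They were chosen by name, with earlier results of these data known, and all 7 were found among the 17310 genes of the count table. RNA sequencing was performed on 100 joint libraries in 21 groups of 4 or 5. They came from STR/ort mice, which are prone to osteoarthritis, C57BL/6 mice, and MRL/MpJ mice, labelled as not susceptible to post-traumatic osteoarthritis. All were labelled as 10 weeks old, the age at which knees were injured, so joints at later times came from older mice. The uninjured 0-day groups held 4 libraries per strain (12 in all), and injured and contralateral joints were sampled at 1-day (30 libraries), 1-week (28) and 2-weeks (30) after injury. The injury was a single compressive overload of the right lower leg that tears the anterior cruciate ligament, and the control was the opposite knee of injured mice, so a response that reaches both knees is not seen in that comparison. Whole joints were processed with small traces of soft tissue, and muscle RNA in a library therefore came from what was left on the joint. The 0-day, 1-day and 1-week libraries formed experimental batch 1 (70 libraries) and the 2-weeks libraries batch 2 (30 libraries), so 2-weeks was not tested against other times, and values over all 100 libraries, which span both batches, are descriptions. The total count per library ran from 6182016 to 20986027 with a median of 10582592.

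Skeletal muscle builds its sarcomeres from alternative sets of proteins. Slow fibres use the slow myosin heavy chain, its light chains and slow troponins, contract slowly and rely on mitochondria, whereas fast fibres use their own isoforms of the same proteins and resist fatigue less well. Several of the slow proteins, among them those of Myh7, Myl2, Myl3 and Tnnc1, are also made in the heart, whereas the adult heart has its own troponins I and T. In mice slow fibres are concentrated in a few postural muscles such as the soleus.

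Myh7 encodes the slow (beta) myosin heavy chain and lies at chr14:54970684-54994626 on the minus strand. Myl2 (chr5:122100951-122113472) and Myl3 (chr9:110741861-110769798), both on the plus strand, encode the slow regulatory and essential light chains. The troponin genes are Tnnc1 (chr14:31208312-31211729, plus strand), for the calcium-binding subunit, Tnni1 (chr1:135779434-135810989, plus strand), for the slow inhibitory subunit, and Tnnt1 (chr7:4504570-4516382, minus strand), for the slow tropomyosin-binding subunit. Myoz2 (chr3:123006206-123035015, minus strand) encodes calsarcin-1, a protein of the Z-disc that binds calcineurin. These spans are GENCODE gene models on GRCm38 (mm10), the build of the deposited counts. Myh7 has a near-identical neighbour, Myh6, and reads could be split between them, so the level of Myh7 is uncertain to that extent.

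The stretches before the start sites of 5 members are shown because the 7 genes moved together in these joints. They come from RefSeq start regions on GRCm38.p6 and are written 5′ to 3′ on the gene's strand. Capitals mark an MCAT element (CATTCC or its reverse complement), a CArG box, a TATA element (TATAAA) or an MEF2 site, and no base belonged to more than 1 of the marked motifs. The stretches lie at chr14:54994812-54994847 (minus strand) for Myh7, chr9:110763481-110763612 (plus) for Myl3, chr14:31208234-31208269 (plus) for Tnnc1, chr7:4515990-4516025 (minus) for Tnnt1 and chr3:123035001-123035040 (minus) for Myoz2.
Myh7: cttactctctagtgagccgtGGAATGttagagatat
Myl3: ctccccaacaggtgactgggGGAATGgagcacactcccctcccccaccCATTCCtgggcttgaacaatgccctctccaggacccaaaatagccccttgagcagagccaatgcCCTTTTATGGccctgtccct
Tnnc1: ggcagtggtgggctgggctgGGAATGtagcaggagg
Tnnt1: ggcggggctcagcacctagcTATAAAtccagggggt
Myoz2: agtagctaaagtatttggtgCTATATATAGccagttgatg

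An MCAT element was found in the 250 bases before the start of Myh7, Tnnc1 and Myl3, which had 2. Both strands of all 32851 mouse start regions in the table were searched in the same way, and 12.6% held an MCAT element, 1.47% a CArG box, 2.92% an MEF2 site and 12.4% TATAAA. E-boxes (CANNTG) were found in every region examined, from 1 in Myh7, Myl3 and Tnnt1 to 4 in Tnni1, and in 66.2% of all start regions. The NFAT core GGAAA (55.6% of all) was found before Myh7, Tnni1, Tnnt1 and Myoz2, and the GC box GGGCGG (32.7% of all) before Tnnt1, where it began just upstream of the printed stretch. Tnni1 held no MCAT, CArG, MEF2 or TATAAA match in this window. The RefSeq starts of Myl3 and Tnni1 lie 21817 and 19987 bases inside their GENCODE spans. Those of Tnnt1 and Myoz2 lie 407 and 28 bases inside, and 15 bases of each of their printed stretches are GENCODE exon. The most upstream RefSeq start was used where a gene had several, and Myl2 was left out because both of its RefSeq starts lie 7762 and 8227 bases upstream of its GENCODE gene start. A match is a description of the letters only.

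The slow-twitch genes were present in every library and varied widely. In CPM (read counts relative to the library total, scaled by TMM over all libraries), Myh7 ran from 5.46 in an MRL/MpJ 1-week injured joint to 537 in a STR/ort 2-weeks injured joint, and Tnni1, the most variable member, ran from 0.526 CPM (4 counts) to 82.6 CPM, a 157-fold range. Myoz2 varied least, from 5.44 to 106 CPM, which is 19.6-fold. Per kilobase of merged exons, the mean level over all libraries was highest for Tnnt1 (79.3 CPM per kb), followed by Myl3 (46.1), Myl2 (45.1), Tnnc1 (30.3), Myoz2 (30.1) and Myh7 (15.7), and lowest for Tnni1 (10.1). The order differed between groups: by group means per kilobase, Tnnt1 was highest in 18 of 21 groups and Myl3 in the other 3, all at 2-weeks, Myl2 was above Myl3 in 9 of 21, and Tnni1 was lowest in 20 of 21. The plot of levels by library shows each value.

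**Figure D1:**
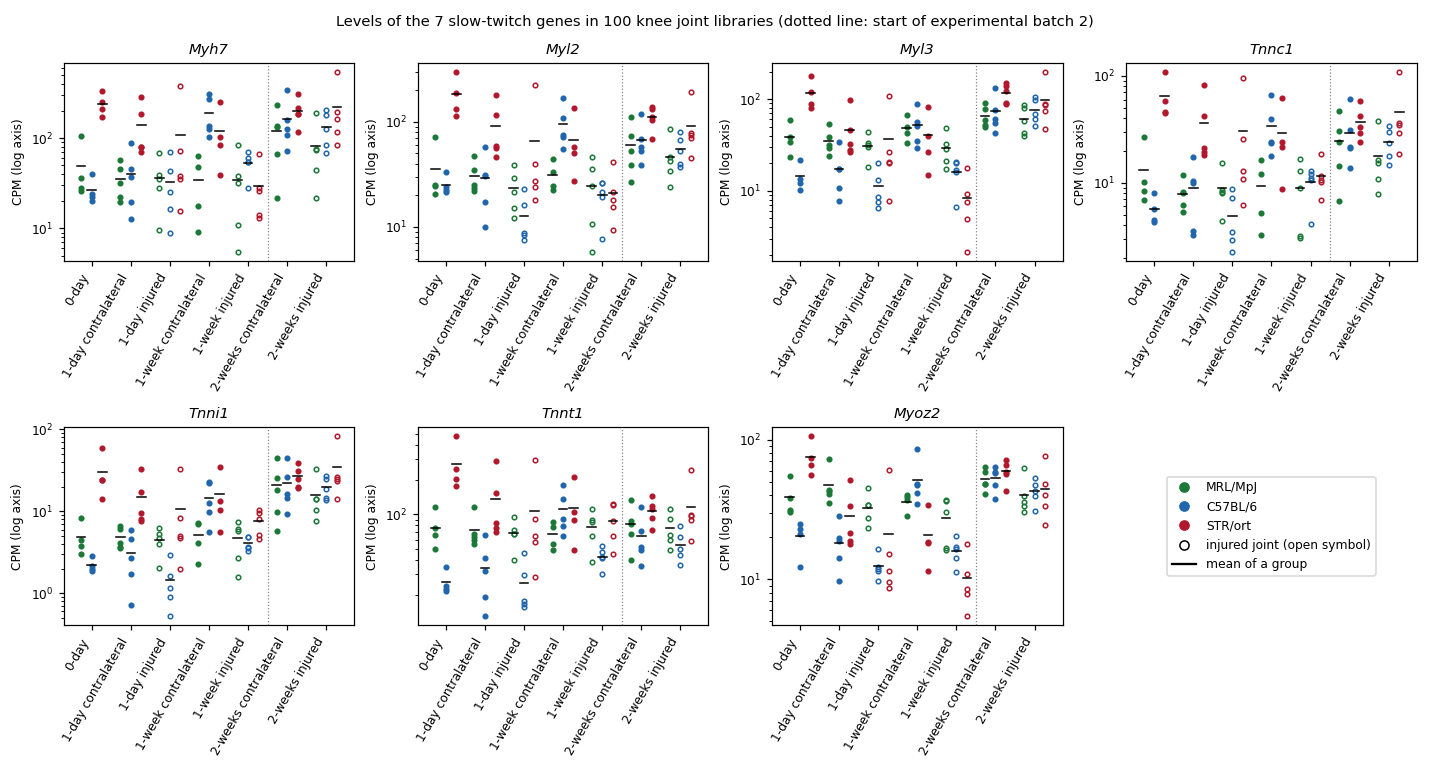
CPM of each slow-twitch gene (log axis) in the 21 groups, with 1 point per library, filled for 0-day and contralateral joints and open for injured joints, colours for strains and bars for arithmetic group means. The 4 STR/ort joints at 0-day lie above every other 0-day joint for all 7 genes, and the single high open red points at 1-day and 2-weeks belong to STR/ort 1-day injured replicate 5 and STR/ort 2-weeks injured replicate 3.

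Fast-fibre genes outweighed the slow-twitch genes. The 14 fast-fibre genes summed to 95460 ± 8365 CPM (SD, n = 4) in MRL/MpJ at 0-day, against 257 ± 125 CPM for the 7 slow-twitch genes. For each slow gene and its fast partner or partners, compared per kilobase, the slow share ran over group means from 0.0921% to 0.705% for the myosin heavy chain (Myh7 against Myh1, Myh2 and Myh4) and from 0.0443% to 0.801% for troponin I (Tnni1 against Tnni2). Troponin T (Tnnt1 against Tnnt3) ran from 0.455% to 3.13%, and calsarcin (Myoz2 against Myoz1) was highest, from 4.39% to 11%. Slow isoforms were thus a small part of the muscle RNA in every group.

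Ordered within batch 1 by the summed CPM of the 7 genes, in which Myh7 and Tnnt1 weigh most, STR/ort at 0-day was highest (986 ± 396 CPM, SD, n = 4). C57BL/6 1-week contralateral joints came next (546 ± 247, n = 5), then STR/ort 1-day contralateral (493 ± 326), 1-week contralateral (408 ± 284, n = 4) and 1-day injured joints (379 ± 457). The last of these means rested on replicate 5 at 1186 CPM, with a group median of 172 CPM and a mean of 177 ± 78.9 CPM (n = 4) without it, which would place the group below those of MRL/MpJ. The MRL/MpJ groups followed, with 257 ± 125 at 0-day, 234 ± 77.9 and 231 ± 73.2 in contralateral joints at 1-day and 1-week, and 207 ± 104 and 205 ± 73.0 in injured joints at 1-week and 1-day. The lowest were STR/ort 1-week injured (176 ± 74.9), C57BL/6 1-week injured (162 ± 42.4), 1-day contralateral (152 ± 93.1), 0-day (120 ± 31.4) and 1-day injured joints (101 ± 54.7). In batch 2 the order was STR/ort contralateral (660 ± 171) and injured joints (651 ± 450), C57BL/6 contralateral (470 ± 243), MRL/MpJ contralateral (424 ± 200), C57BL/6 injured (406 ± 138) and MRL/MpJ injured joints (338 ± 164, n = 5 each). The ranges of neighbours overlapped throughout both orders.

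The members rose and fell together from library to library. Over the 100 libraries the 21 pairs of members had Pearson correlations of log2 CPM between 0.623 (Tnnt1 with Myoz2) and 0.954 (Myh7 with Tnnc1), with a median of 0.813. After subtraction of group means the correlations ran from 0.781 to 0.956 with a median of 0.894. The points share strain, batch and the muscle content of a joint, and these values are descriptions. The genes outside the set most like its mean log2 CPM over the 100 libraries were Homer2, a scaffold protein (r = 0.823), Slc25a20, the mitochondrial carnitine carrier (0.768), and Atp2a2, the calcium pump of slow and cardiac muscle (0.753, and 0.848 after group means), followed by Fabp3 (0.75), Gid4 (0.749), Bckdha (0.717), Cycs (0.715), Hadh (0.712), Pla2g4e (0.71) and Lrrc28 (0.709). Against the same mean, the fast-fibre genes had a median r of 0.466, other slow-fibre genes 0.604, oxidative muscle genes 0.531 and cartilage genes -0.056.

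To compare the strains before injury, 0-day joints were tested with edgeR's quasi-likelihood test, and a gene was called at a Benjamini-Hochberg adjusted p below 0.05 and a fold above 1.5. STR/ort joints exceeded those of MRL/MpJ and of C57BL/6 for each of the 7 slow-twitch genes. Markers of other tissues moved in the same joints. Synovial fibroblast genes summed to 2614 to 6226 CPM in STR/ort, 1065 to 1423 CPM in MRL/MpJ and 1632 to 2781 CPM in C57BL/6, with 2 of 4 genes higher in STR/ort than in MRL/MpJ, and 1 of 4 higher and 1 lower than in C57BL/6. Erythroid genes summed to 612 to 722, 1298 to 1604 and 918 to 1065 CPM in the same order, with 2 of 2 tested lower in STR/ort than in MRL/MpJ and 1 of 2 lower than in C57BL/6. Marrow neutrophil genes summed to 6862 to 8239 CPM in STR/ort, below MRL/MpJ (8612 to 10670 CPM, 1 of 5 genes lower), and overlapped C57BL/6. Fat genes summed to 137 to 180 CPM in STR/ort, below C57BL/6 (214 to 352 CPM, 1 of 4 genes higher and 1 lower), and overlapped MRL/MpJ. Muscle regeneration genes summed to 113 to 122 CPM in STR/ort, 94.4 to 95.6 CPM in MRL/MpJ and 78.6 to 93.5 CPM in C57BL/6, with 2 of 8 higher in STR/ort than in MRL/MpJ and 4 of 8 than in C57BL/6. The part of these tissues in the member values was not tested. In bulk joints, more slow fibres and more of these transcripts per fibre cannot be told apart.

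Myh7 measured 170, 210, 251 and 331 CPM in the 4 STR/ort joints, 106, 25.8, 27.9 and 36.6 CPM in MRL/MpJ, and 23.9, 20.3, 40.4 and 21.99 CPM in C57BL/6. Tnnt1 measured 178, 247, 202 and 479 CPM in STR/ort, 115, 65.9, 49.8 and 75.9 CPM in MRL/MpJ, and 23.6, 21.6, 34.8 and 22.6 CPM in C57BL/6. STR/ort replicate 4 was the highest joint for both genes, MRL/MpJ replicate 1 was high for its strain, and STR/ort did not overlap either strain. Tnni1 measured 14.2, 24.3, 23.9 and 59.3 CPM in STR/ort against at most 8.19 CPM in MRL/MpJ and at most 2.83 CPM in C57BL/6. Myoz2 came closest to overlapping, with 55.7, 73.7, 66.4 and 106 CPM in STR/ort and 55.2, 30.5, 38.6 and 31.6 CPM in MRL/MpJ.

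Against MRL/MpJ, Myh7 was 4.75-fold higher in STR/ort (log2 fold 2.25 ± 0.34 SE, adjusted p = 4.55e-05), Myl2 4.95-fold and Myl3 2.93-fold. Among the troponins the folds were 4.62 for Tnnc1, 5.93 for Tnni1 and 3.58 for Tnnt1, and Myoz2 was the least changed at 1.91-fold (log2 fold 0.94 ± 0.21, adjusted p = 0.00187). In this comparison 14.8% of all genes were called, and the groups did not overlap, STR/ort higher, for all 7 members and for 14.9% of all genes. The median log2 fold of the members was 2.21, against 0.01 over all genes. The fast-fibre genes had a median of 0.04 with 0 of 14 higher and 1 lower, the 11 shared sarcomere genes, which both fibre types use, a median of 0 with 0 of 11 called, and other slow-fibre genes a median of 0.68 with 6 of 10 higher. Atp2a2 rose by 0.69 ± 0.09 (adjusted p = 1.33e-05) on the log2 scale, while Mybpc1, the slow myosin-binding protein, stood at -0.44 ± 0.18 (adjusted p = 0.0641).

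The shared sarcomere genes summed to 44150 to 54540 CPM in MRL/MpJ and 49820 to 60260 CPM in STR/ort, so the ranges of this measure of muscle content overlapped. With the log2 of that sum as a covariate, an alternative chosen after seeing the data, all 7 genes remained higher in STR/ort, Myh7 by 2.11 ± 0.30 and Myoz2 by 0.78 ± 0.14 on the log2 scale. Leaving out any of the 12 libraries also kept 7 calls. Regulators of the slow programme (14 genes, among them Mef2c and Ppp3ca, the catalytic subunit of calcineurin) had 0 calls and a median of 0.05 in edgeR's test. Ppp3ca stood at 0.35 ± 0.09 (adjusted p = 0.00644), under the fold threshold.

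Against C57BL/6 the folds were larger. Tnni1 was 13.2-fold higher in STR/ort, Tnnc1 11.1-fold, Tnnt1 10.5-fold, Myh7 8.79-fold, Myl3 7.86-fold, Myl2 7.03-fold and Myoz2 3.59-fold, with adjusted p from 7.48e-08 (Tnnt1) to 3.88e-06 (Myl2) by edgeR. Of all genes 13.8% were called in this comparison, and 15.6% did not overlap with STR/ort higher, as did all 7 members. Other muscle genes differed in the same direction: 11 of 14 fast-fibre genes (median log2 fold 0.82, all genes -0.06), 9 of 11 shared sarcomere genes (0.93), 8 of 10 other slow-fibre genes (0.94) and 7 of 7 oxidative muscle genes (1.11) were higher, against a member median of 3.14. The shared sarcomere sum ran from 20090 to 33770 CPM in C57BL/6, below every STR/ort joint. With that sum as a covariate 0 members were called (Myh7 1.61 ± 0.76, adjusted p = 0.416), and with 2 factors from housekeeping genes removed by RUVg 1 was called, Tnnt1 (2.24 ± 0.55, adjusted p = 0.0223). As the covariate does not overlap between the strains, strain and this sum cannot be told apart in that fit. Relative to the fast-fibre genes, the log2 ratio of the summed CPM was -6.62 ± 0.45 in STR/ort and -8.80 ± 0.34 in C57BL/6 (SD, n = 4 each). Per kilobase, the slow share beside the fast partner or partners was higher in STR/ort without overlap for 7 of 7 members, for Myh7 at 0.453% to 0.873% against 0.0911% to 0.176% and for Tnni1 at 0.231% to 0.708% against 0.0431% to 0.0753%. The shares in STR/ort did not overlap those in MRL/MpJ for any of the 7 either.

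C57BL/6 and MRL/MpJ differed less. Myl3 (log2 fold -1.42 ± 0.29, adjusted p = 0.00075), Tnnc1, Tnnt1 (-1.55 ± 0.29, adjusted p = 0.000321) and Myoz2 were lower in C57BL/6, 4 of 7 against 15.9% of all genes called. Myh7 (-0.89 ± 0.36, adjusted p = 0.0624), Myl2 (-0.51 ± 0.35) and Tnni1 (-1.16 ± 0.51) did not pass. The fast-fibre genes were lower too, 12 of 14 with a median of -0.79, as were 9 of 11 shared sarcomere genes. The cardiac list summed to 256 to 460 CPM in C57BL/6 and 62.3 to 84.2 CPM in MRL/MpJ. Bone genes summed to 2085 to 2915 and 1365 to 1869 CPM, and fat genes to 214 to 352 and 146 to 172 CPM. By the ranges given above, synovial fibroblast sums were higher and erythroid and muscle regeneration sums lower in C57BL/6. The part of these lists in the result was not tested. With the muscle covariate 0 members were called, and Tnnc1 and Myoz2, of the genes called, changed sign. RUVg with 2 factors also left 0. The shared sarcomere sum was 20090 to 33770 CPM in C57BL/6 and 44150 to 54540 CPM in MRL/MpJ. As it does not overlap, strain and sum cannot be told apart in the covariate fit.

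**Figure D2:**
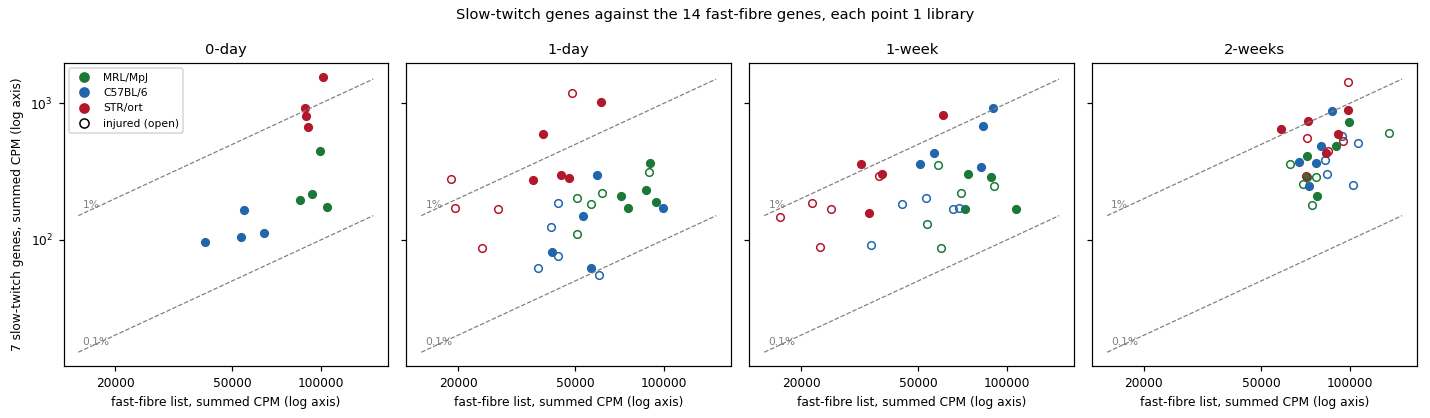
Summed CPM of the 7 slow-twitch genes against that of the 14 fast-fibre genes (both log axes) in every library, by time point, with colours for strains and open symbols for injured joints, and dashed lines where the first sum is 0.1% or 1% of the second. At 0-day STR/ort and MRL/MpJ joints overlap on the fast-fibre axis (88260 to 101200 and 84950 to 104400 CPM), and STR/ort joints sit 665 to 1558 CPM high on the slow axis against 172 to 443 CPM for MRL/MpJ.

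Contralateral joints were then compared between strains at each time, in a fit of all libraries of that time point. At 1-day, Myh7, Myl2, Tnnc1 and Tnni1 were higher in STR/ort than in MRL/MpJ, 4 of 7 members with 22.6% of all genes called. Tnnc1 measured 41.8, 18.3, 19.2, 81.6 and 21.3 CPM in STR/ort and 8.27, 11.8, 6.16, 8.002 and 5.32 CPM in MRL/MpJ, without overlap, as for 3 of 7 members and 16.4% of all genes with STR/ort higher (log2 fold 2.26 ± 0.58, adjusted p = 0.00162). Over the same joints 12 of 14 fast-fibre genes were lower in STR/ort (median -0.80), as were 10 of 11 shared sarcomere genes and 7 of 7 oxidative muscle genes. With the muscle covariate 6 of 7 members were higher, all but Myoz2. The shared sarcomere sum was 18840 to 33980 CPM in STR/ort and 40700 to 51190 CPM in MRL/MpJ. As it does not overlap, strain and sum cannot be told apart in that fit. Against C57BL/6 at 1-day, 6 of 7 were higher in STR/ort (10.5% of all genes called), led by Tnni1 at 2.33 ± 0.55, with Myoz2 at 0.68 ± 0.39 (adjusted p = 0.194). That count was 3 without C57BL/6 1-day contralateral replicate 3, C57BL/6 1-day contralateral replicate 4 or STR/ort 1-day contralateral replicate 4. Between C57BL/6 and MRL/MpJ, Myoz2 was the 1 member called, lower in C57BL/6 by 1.35 ± 0.38 on the log2 scale (14.8% of all genes called). This call was lost with RUVg with 1 factor (-0.69 ± 0.43) or 2 factors (-0.95 ± 0.41) and with the muscle covariate (-0.53 ± 0.27). It became 3 members without C57BL/6 1-day contralateral replicate 5 or STR/ort 1-day injured replicate 5, which shares the fit. In the same joints synovial fibroblast genes summed to 6634 to 9395 CPM in STR/ort, 1392 to 2278 CPM in MRL/MpJ and 1766 to 2400 CPM in C57BL/6, and 5 of 5 cartilage and 4 of 4 bone genes were higher in STR/ort and in C57BL/6 than in MRL/MpJ. Their part in the result was not tested.

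At 1-week Myh7 (log2 fold 1.82 ± 0.62), Tnnc1 (1.66 ± 0.53) and Tnni1 (1.63 ± 0.47) were higher and Myoz2 lower (-0.80 ± 0.31) in STR/ort than in MRL/MpJ contralateral joints, 4 of 7 with 24.4% of all genes called. The fast-fibre list was lower in STR/ort in 14 of 14 genes with a median of -1.02. The count was 2 without MRL/MpJ 1-week contralateral replicate 1 and 1 without STR/ort 1-week contralateral replicate 2. Myoz2 changed sign to 0.36 ± 0.28 with the muscle covariate. The shared sarcomere sum was 18170 to 32220 CPM in STR/ort and 41140 to 56900 CPM in MRL/MpJ. As it does not overlap, strain and sum cannot be told apart in that fit. Against C57BL/6, Myoz2 was lower in STR/ort by 1.32 ± 0.30 on the log2 scale and the other 6 did not pass (22.2% of all genes called), with 0 called under the muscle covariate or RUVg with 1 or 2 factors. Against both strains 5 of 5 cartilage, 4 of 4 bone and 4 of 4 synovial fibroblast genes were higher in STR/ort, and 2 of 2 erythroid genes lower, and their part in the result was not tested.

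C57BL/6 contralateral joints at 1-week were above MRL/MpJ for Myh7 (2.45 ± 0.60, adjusted p = 0.00423), Myl2 (1.62 ± 0.47), Tnnc1 (1.88 ± 0.51) and Tnni1 (1.48 ± 0.45), 4 of 7 with 8.53% of all genes called. Myh7 measured 269, 306, 103, 137 and 125 CPM in C57BL/6 and 9.05, 62.9, 48.2 and 17.5 CPM in MRL/MpJ. Every C57BL/6 joint was above every MRL/MpJ joint for this gene, as for 3 of 7 members and 8.85% of all genes, the reverse of the order of means at 0-day. The fast-fibre list had 0 of 14 genes called by edgeR and a median of -0.19. The cardiac list summed to 158 to 293 CPM in C57BL/6 and 72.9 to 91.2 CPM in MRL/MpJ. Fat genes summed to 155 to 205 and 113 to 153 CPM, and the part of these lists in the result was not tested. The member count was 2 without MRL/MpJ 1-week contralateral replicate 1, MRL/MpJ 1-week contralateral replicate 4 or C57BL/6 1-week contralateral replicate 2.

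At 2-weeks Myl3 was higher in STR/ort than in MRL/MpJ contralateral joints (0.83 ± 0.31, adjusted p = 0.0343), the 1 member called beside 13.8% of all genes. The count was 0 under RUVg with 2 factors, and 2 under RUVg with 1 factor or the muscle covariate. This call was lost without MRL/MpJ 2-weeks contralateral replicates 1, 3 or 4, or STR/ort 2-weeks contralateral replicates 2, 4 or 5 (0 called), and it was 2 members without MRL/MpJ 2-weeks contralateral replicate 2, MRL/MpJ 2-weeks injured replicate 4, STR/ort 2-weeks injured replicate 3 or STR/ort 2-weeks contralateral replicate 3. In the same joints other tissues moved too. Synovial fibroblast genes summed to 1155 to 2238 against 504 to 652 CPM, and cartilage genes to 2135 to 3196 against 1231 to 1810 CPM. Bone genes summed to 801.5 to 1140 against 612 to 714 CPM, and muscle regeneration genes to 126 to 183 against 90.1 to 107 CPM. Erythroid genes were lower in STR/ort, at 431.5 to 647 against 1078 to 1272 CPM. Their part in the result was not tested. STR/ort against C57BL/6 gave 0 members (9.78% of all genes), and 3 without C57BL/6 2-weeks contralateral replicate 3. C57BL/6 against MRL/MpJ gave 0 (9.83% of all genes). Both counts were 0 with DESeq2 too, and 2 members (Myl3 and Tnnt1) of the former and 0 of the latter had an unadjusted p below 0.05. The largest of these 2 sets of differences was 0.74 ± 0.33 on the log2 scale, for Tnnt1 in STR/ort over C57BL/6 (adjusted p = 0.102).

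**Figure D3:**
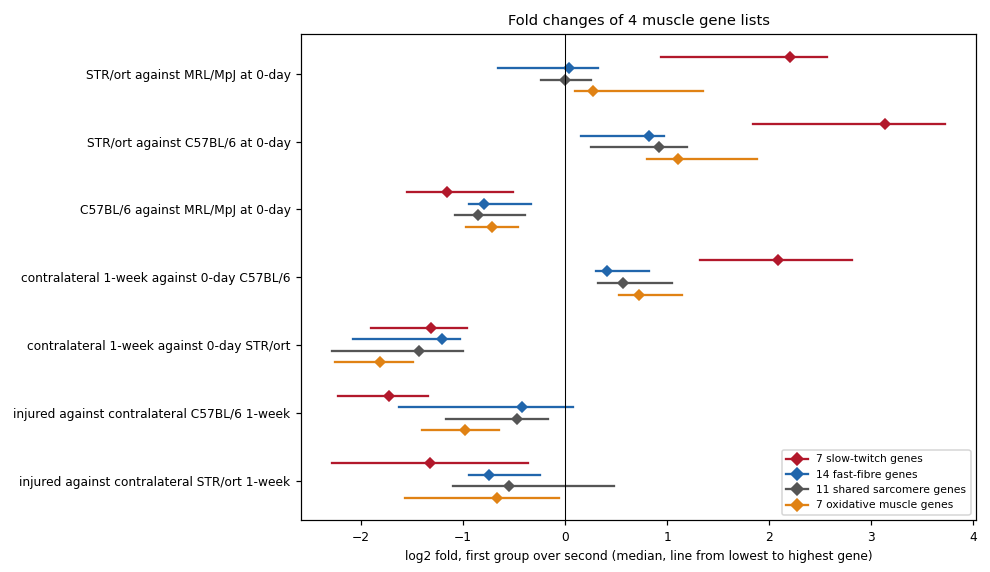
Log2 folds of the slow-twitch genes and 3 other muscle gene lists in 7 comparisons, with a diamond for the median gene and a line from the lowest to the highest gene. The slow-twitch line lies above the fast-fibre line in STR/ort against MRL/MpJ at 0-day (median 2.21 against 0.04) and in C57BL/6 1-week contralateral against 0-day (2.09 against 0.42), and below it in C57BL/6 1-week injured against contralateral joints in the median (-1.72 against -0.42), while the lists shift together in STR/ort 1-week contralateral against 0-day.

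Time within a strain was tested in batch 1, separately for each strain. In C57BL/6 contralateral joints all 7 slow-twitch genes were higher at 1-week than at 0-day, with 5.54% of all genes called. Myh7 rose 7.01-fold, from 20.3 to 40.4 CPM at 0-day to 103 to 306 CPM at 1-week (log2 fold 2.81 ± 0.49, adjusted p = 0.000335). Tnni1 rose 6.45-fold, from 1.99, 1.85, 2.83 and 2.16 CPM to 23.0, 22.2, 5.64, 12.5 and 9.73 CPM. Tnnc1 rose 5.96-fold, Tnnt1 4.25-fold, Myl2 3.74-fold, Myl3 3.55-fold and Myoz2 2.5-fold. The groups did not overlap for any of the 7, which held with the later joints higher for 6.57% of all genes.

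The 7 calls were kept without each of the 24 libraries in turn and with the muscle covariate, where Myh7 was 2.41 ± 0.50 and Myoz2 0.86 ± 0.22 on the log2 scale. Other slow-fibre genes were higher in 7 of 10 (median 0.79), oxidative muscle genes in 4 of 7 (0.72), fast-fibre genes in 1 of 14 (0.42) and shared sarcomere genes in 4 of 11 (0.57), against a member median of 2.09 and 0.02 over all genes. Mb, myoglobin, rose by 0.72 ± 0.21 (adjusted p = 0.0224) and Atp2a2 stood at 0.50 ± 0.10 (adjusted p = 0.00137), under the fold threshold. In the same comparison 5 of 5 cartilage, 4 of 4 bone and 4 of 4 synovial fibroblast genes were lower at 1-week. Fat genes summed to 155 to 205 CPM at 1-week and 214 to 352 CPM at 0-day. Erythroid genes summed higher, to 1194 to 1617 against 918 to 1065 CPM, and the part of these lists in the result was not tested.

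No member was called in C57BL/6 contralateral joints at 1-day against 0-day, where 0.0462% of all genes were, and the folds ran from -0.19 ± 0.26 (Myoz2) to 0.61 ± 0.48 (Tnnc1) on the log2 scale. Injured C57BL/6 joints at 1-week against 1-day gave Tnni1 alone, higher by 1.51 ± 0.48 (adjusted p = 0.0345), with 4.35% of all genes called, and RUVg left Tnni1 uncalled (1.33 ± 0.51, adjusted p = 0.068, for 1 factor, and 1.41 ± 0.62, adjusted p = 0.122, for 2). The call was also lost without C57BL/6 1-day injured replicates 1, 3 or 4 or C57BL/6 1-week injured replicates 1, 3 or 4. MRL/MpJ gave 0 members in contralateral joints at 1-day (0.156% of all genes) and 1-week (0% of all genes) against 0-day, and 0 in injured joints at 1-week against 1-day (3.52% of all genes). In these 3 comparisons and in C57BL/6 at 1-day 0 members passed with DESeq2 and 0 had an unadjusted p below 0.05. The MRL/MpJ folds in contralateral joints at 1-week ran from -0.57 ± 0.48 (Tnnc1) to 0.28 ± 0.28 (Myl3).

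In STR/ort contralateral joints Myoz2 was lower than at 0-day both at 1-day (-1.42 ± 0.44, 8.89% of all genes called) and at 1-week (-1.91 ± 0.49, adjusted p = 0.00525, 12.6% of all genes called), with no other member passing. Myoz2 measured 33.5, 18.8, 21.5, 51.7 and 18.0 CPM at 1-day and 18.5, 34.3, 11.4 and 18.4 CPM at 1-week, below every 0-day joint. At each time 1 of 7 members lay below 0-day without overlap, beside 12.5% of all genes. The fast-fibre genes were lower in 14 of 14 at both times, and the 11 shared sarcomere genes in 11 of 11 at 1-week (median -1.43, member median -1.31). Myoz2 stood at 0.43 ± 0.33 at 1-day and 0.12 ± 0.36 at 1-week with the muscle covariate. RUVg with 1 or 2 factors left 0 calls at both times. The shared sarcomere sum was 18840 to 33980 CPM at 1-day, 18170 to 32220 CPM at 1-week and 49820 to 60260 CPM at 0-day. As it does not overlap 0-day, time and sum cannot be told apart in the covariate fit. Synovial fibroblast genes summed to 6634 to 9395 CPM at 1-day and 6264 to 18870 CPM at 1-week, above every 0-day joint, and their part in the result was not tested. At 1-day the count was 0 without STR/ort 0-day replicate 4 or STR/ort 1-day contralateral replicates 2, 3 or 5, it was 2 without STR/ort 1-day injured replicate 5, and 3 without STR/ort 1-day contralateral replicate 4. At 1-week it was 4 without STR/ort 1-day injured replicate 5 or STR/ort 1-week contralateral replicate 2, and 2 without STR/ort 1-day injured replicate 1.

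Injury was tested as injured against contralateral joints of the same strain and time. At 1-day 0 of 7 members were called in MRL/MpJ (2.02% of all genes), C57BL/6 (5.6%) and STR/ort (4.31%), with 0 at an unadjusted p below 0.05 and 0 with DESeq2. In STR/ort, Myh7 measured 15.6, 72.3, 37.9, 34.9 and 373 CPM in injured joints and 184, 78.7, 80.4, 288 and 70.2 CPM in contralateral joints. Injured replicate 5 alone was above the contralateral median, and it was the highest of its group for every member. Without it, 6 of 7 members were lower in injured STR/ort joints, Myh7 by 1.82 ± 0.55 (adjusted p = 0.0217) and Myoz2 by 1.37 ± 0.30 (adjusted p = 0.00155) on the log2 scale, with Tnnt1 at -1.17 ± 0.41 (adjusted p = 0.0511). With all libraries 11 of 14 fast-fibre genes were lower in the same comparison (median -0.73), and the part of muscle content in the member values was not tested further than by the covariate, with which 0 members were called.

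At 1-week all 7 slow-twitch genes were lower in injured than in contralateral C57BL/6 joints, with 5.82% of all genes called. Myl2 measured 26.3, 21.4, 26.4, 19.1 and 7.59 CPM in injured joints and 109, 167, 71.9, 75.1 and 54.6 CPM in contralateral joints. Tnnt1 measured 53.3, 46.7, 42.1, 41.6 and 30.0 CPM against 137, 180, 64.3, 91.6 and 78.5 CPM. All injured joints were below all contralateral joints for each of the 7 members, which was so for 3.47% of all genes.

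Myl2 was the most changed, 4.66-fold lower (log2 fold -2.22 ± 0.44, adjusted p = 0.000675), and Tnnt1 the least, 2.53-fold lower (-1.34 ± 0.32, adjusted p = 0.00468). Tnni1 was 3.48-fold, Myh7 3.46-fold, Tnnc1 3.29-fold, Myl3 3.18-fold and Myoz2 3.15-fold lower. The contralateral joints of this comparison were those that stood above 0-day. Oxidative muscle genes were lower in 6 of 7 (median -0.98), Mb by 1.05 ± 0.20 (adjusted p = 0.000332) and Ckmt2, the mitochondrial creatine kinase of muscle, by 1.40 ± 0.28 on the log2 scale. Fast-fibre genes were lower in 2 of 14 (median -0.42), shared sarcomere genes in 4 of 11 (-0.47) and other slow-fibre genes in 3 of 10 (-0.42), against a member median of -1.72 and -0.01 over all genes. Markers of other tissues also moved. Synovial fibroblast genes were higher in 4 of 4, with sums of 2599 to 2945 CPM in injured and 919 to 1373 CPM in contralateral joints. The cardiac list summed to 53.4 to 90.4 against 158 to 293 CPM, and of its 6 genes tested 1 was lower, Actc1 (-1.83 ± 0.28, adjusted p = 1.71e-05). Fat genes summed to 92.5 to 125 against 155 to 205 CPM with 1 of 4 lower, and the part of these lists in the member values was not tested.

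Relative to the fast-fibre genes, the log2 ratio of the summed CPM was lower in injured joints by 1.24 (-8.36 ± 0.35 against -7.12 ± 0.48, SD, n = 5 each). Per kilobase, the share of a slow gene beside its own fast partner or partners was lower without overlap between the joints for 2 of 7 members, and overlapped for the other 5. The shared sarcomere genes summed to 19260 to 35390 CPM in injured and 27300 to 49000 CPM in contralateral joints. With this sum as a covariate Myl2 (-1.49 ± 0.39, adjusted p = 0.0124) and Myoz2 (-1.05 ± 0.20, adjusted p = 0.000556) were called and the other 5 were not, and RUVg with 2 factors left 3 calls, Myl2, Myl3 and Myoz2. Leaving out single libraries gave 5 to 7 calls.

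In STR/ort at 1-week 5 of 7 were lower in injured joints, with 9.21% of all genes called. Myl3 measured 4.88, 7.57, 2.14, 17.9 and 9.16 CPM in injured joints against 39.5, 82.9, 14.9 and 26.8 CPM in contralateral joints (log2 fold -2.28 ± 0.45, adjusted p = 0.000435), and injured replicate 4 lay above the lowest contralateral joint. The groups overlapped for all 7 genes. Myh7 was 4.06-fold lower (adjusted p = 0.0113), Myl2 3.17-fold, Tnnc1 2.5-fold and Myoz2 2.02-fold. Tnni1 stood at -1.08 ± 0.42 (adjusted p = 0.0637), and Tnnt1 measured 122, 87.0, 45.3, 120 and 64.2 CPM against 105, 211, 48.7 and 89.1 CPM, a log2 fold of -0.37 ± 0.33 (adjusted p = 0.48).

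Other muscle lists moved with this result: 11 of 14 fast-fibre genes (median -0.74), 4 of 11 shared sarcomere genes and 3 of 7 oxidative muscle genes were lower, while 4 of 8 muscle regeneration genes were higher, among them the embryonic myosin Myh3 by 2.02 ± 0.31 (adjusted p = 1.73e-05) and the perinatal myosin Myh8 by 0.99 ± 0.21 on the log2 scale. Marrow neutrophil genes summed to 4574 to 6569 CPM in injured and 7576 to 9993 CPM in contralateral joints, with 2 of 5 lower. Of the bone genes 2 of 4 were lower (2161 to 2929 against 2583 to 3758 CPM), of the fat genes 1 of 4 (113 to 151 against 135 to 265 CPM), and 2 of 4 synovial fibroblast genes were higher. The part of these lists in the member values was not tested. The member median was -1.32, against -0.03 over all genes. With the muscle covariate and with RUVg with 2 factors 1 member was called, Myl3. The count was 1 without STR/ort 1-week contralateral replicate 2, again Myl3 (-1.69 ± 0.44, adjusted p = 0.00668), and 3 without STR/ort 1-week injured replicates 1, 3 or 5. Per kilobase, the ratio of Tnnt1 to Myh7 was 23.7 ± 18.3 (SD, n = 5) in injured STR/ort joints, from 10.7 to 55.6, and 6.05 ± 0.97 (n = 4) in contralateral joints, from 4.89 to 7.25. Injured replicate 1 was the highest, and without it the mean was 15.7 ± 4.33 (n = 4). In MRL/MpJ at 1-week the ratio was 22.6 ± 14.4 (7.83 to 41.2) in injured joints and ran from 7.25 to 31.7 in contralateral joints. Relative to the fast-fibre genes, the log2 ratio of the summed CPM was -7.20 ± 0.49 (SD, n = 5) in injured and -6.86 ± 0.68 (n = 4) in contralateral joints, a difference of -0.34. By the mean of log2 CPM, in which each gene weighs alike, it was -0.60 against the fast-fibre genes and -0.81 against the shared sarcomere genes (SD of 0.44 in injured and 0.74 in contralateral joints for the latter). The joints overlapped in the first ratio, and in the slow shares of all 7 members.

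In MRL/MpJ at 1-week 0 of 7 members were called, with 3.13% of all genes, and 0 had an unadjusted p below 0.05 or passed with DESeq2. Myh7 measured 31.9, 84.0, 37.8, 11.02 and 5.46 CPM in injured joints and 9.05, 62.9, 48.2 and 17.5 CPM in contralateral joints, and the widely spread groups overlapped. The largest difference was that of Myl3, -0.69 ± 0.40 (adjusted p = 0.48), and Tnnt1 stood at 0.25 ± 0.34.

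At 2-weeks 0 of 7 members were called in MRL/MpJ (1.16% of all genes), C57BL/6 (2.95%) and STR/ort (4.66%), with 0 at an unadjusted p below 0.05 and 0 with DESeq2. With the replicate number as a block, which marks the animal at 2-weeks, 0 members were called too. Without the block, the log2 folds ran from -0.55 ± 0.53 (Myh7 in MRL/MpJ) to 0.37 ± 0.45 (Tnni1 in STR/ort). In STR/ort, Myh7 measured 117, 162, 537, 196 and 83.7 CPM in injured joints against 182, 304, 116, 213 and 184 CPM in contralateral joints. Injured replicate 3 was the highest of the 30 libraries at 2-weeks for every member, and without it 1 member, Myoz2, was called lower.

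**Figure D4:**
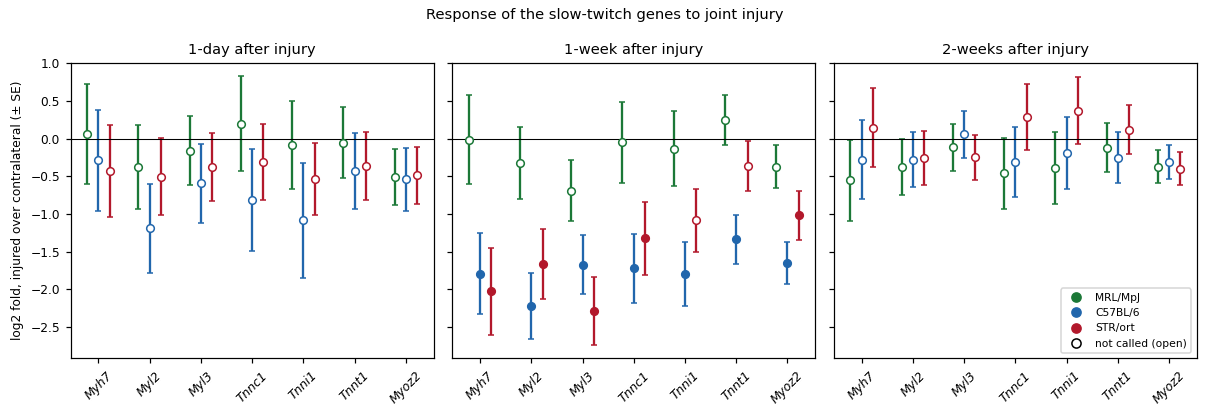
Log2 fold of injured over contralateral joints (± SE) for each slow-twitch gene and strain at 3 times after injury, with filled symbols for genes called. Filled symbols appear at 1-week alone, for 7 genes in C57BL/6 (-1.34 to -2.22) and 5 in STR/ort (-1.02 to -2.28), while MRL/MpJ points lie between -0.69 and 0.25.

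Whether the strains differed in their response to injury was tested by the difference of the injury contrasts. No member passed in any of the 9 tests with edgeR or with DESeq2. At an unadjusted p below 0.05, 6 of 7 members differed between C57BL/6 and MRL/MpJ at 1-week, 2 between STR/ort and MRL/MpJ (Myh7 and Myl3) and 1 between STR/ort and C57BL/6 (Tnnt1), and 0 in the tests at the other times. At 1-day the share of all genes called was 0.162% for STR/ort against MRL/MpJ, 2.66% for STR/ort against C57BL/6 and 0.318% for C57BL/6 against MRL/MpJ. At 1-week it was 0.884%, 0.491% and 0%, and at 2-weeks 0.451%, 0.0462% and 0%. The largest differences were at 1-week, where Myh7 fell by 2.01 ± 0.83 more in STR/ort than in MRL/MpJ (adjusted p = 0.281) and Myl2 by 1.90 ± 0.65 more in C57BL/6 than in MRL/MpJ (adjusted p = 1). With the replicate number as a block at 1-week, 2 members were called for STR/ort against MRL/MpJ, Myh7 (-2.26 ± 0.55, adjusted p = 0.029) and Myl3 (-1.73 ± 0.44, adjusted p = 0.0353), and 1 for STR/ort against C57BL/6, Tnnt1 (1.09 ± 0.27, adjusted p = 0.0332). The labels do not say whether a number marks the same animal at 1-week, and the correlation of the joints cannot settle it. The blocked fit also left out injured replicate 5 of MRL/MpJ and STR/ort, whose number had no contralateral joint. In MRL/MpJ this was the lowest of all libraries for Myh7 (5.46 CPM). The block and the omission were not tested apart.

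Injured joints were also set against 0-day joints of their strain, a comparison added after seeing the levels, which shares the 0-day libraries with the comparisons of contralateral joints above. In STR/ort all 7 members were lower at 1-week (23.1% of all genes called), from -1.68 ± 0.53 for Tnnt1 to -3.81 ± 0.64 for Myl3 on the log2 scale, without overlap for any of the 7 and for 16.4% of all genes. Every fast-fibre gene (14 of 14, median -1.91) and shared sarcomere gene (11 of 11, -1.97) was lower too, against a member median of -2.92. Synovial fibroblast genes summed to 7318 to 11090 CPM against 2614 to 6226 CPM at 0-day, with 4 of 4 higher, and marrow neutrophil genes to 4574 to 6569 against 6862 to 8239 CPM, with 0 of 5 called, and their part in the result was not tested. With the muscle covariate 0 members were called and 6 of 7 changed sign, with standard errors of 0.46 to 0.79. RUVg with 1 or 2 factors also left 0. The shared sarcomere sum was 49820 to 60260 CPM at 0-day. In injured joints it was 10060 to 21860 CPM at 1-week and 11470 to 29840 CPM at 1-day. As it does not overlap 0-day at either time, group and sum cannot be told apart in the covariate fit. At 1-day 4 members were lower in STR/ort, Myl3, Tnni1, Tnnt1 and Myoz2 (15.3% of all genes called), and all 7 were without STR/ort 1-day injured replicate 5. With all libraries DESeq2 called 2, and RUVg with 1 or 2 factors and the muscle covariate called 0, with all 4 genes turned to positive folds, from 0.23 ± 0.70 for Myoz2 to 1.68 ± 0.88 for Tnni1. The same count was 1 without STR/ort 0-day replicate 4 or STR/ort 1-day injured replicates 1, 3 or 4, and 2 without STR/ort 0-day replicates 2 or 3, STR/ort 1-day injured replicate 2, STR/ort 1-day contralateral replicate 1 or STR/ort 1-week injured replicate 2.

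In C57BL/6 injured joints against 0-day, 0 members were called at 1-day (4.32% of all genes) and at 1-week (2.5% of all genes). The 1-week folds ran from -0.35 ± 0.27 for Myoz2 to 1.01 ± 0.48 for Myh7 (adjusted p = 0.303). At 1-day 1 member, Myoz2, was called lower without C57BL/6 0-day replicate 4 or C57BL/6 1-week contralateral replicate 2, and 1 member was called with housekeeping scaling and with the muscle covariate. In MRL/MpJ 0 were called at 1-day (3.67% of all genes) and 0 at 1-week (3.65% of all genes), with log2 folds between -0.67 ± 0.42 and 0.03 ± 0.26. In these 4 comparisons DESeq2 called 0 too, and an unadjusted p below 0.05 was found for Myl2 and Myoz2 in C57BL/6 at 1-day, Myh7 in C57BL/6 at 1-week and Myoz2 in MRL/MpJ at 1-week.

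Between injured joints of STR/ort, 1-week was below 1-day for Myh7 (-1.84 ± 0.68, adjusted p = 0.0428), Myl2 (-1.62 ± 0.61) and Myl3 (-2.11 ± 0.62), 3 of 7 with 13% of all genes called. These 3 calls were lost without STR/ort 1-day injured replicate 5, and 1 was left without STR/ort 1-week injured replicates 1, 2, 3 or 5. Housekeeping scaling gave 1 call, the muscle covariate 1 (Myl3, -1.63 ± 0.41, adjusted p = 0.00355), and RUVg with 1 or 2 factors 5, adding Tnnc1 and Myoz2. Tnnt1 stood at -0.28 ± 0.51 and Tnni1 at -0.49 ± 0.62. Marrow neutrophil genes summed to 4574 to 6569 CPM at 1-week and 7085 to 8365 CPM at 1-day. Muscle regeneration genes summed to 109 to 201 and 84.1 to 108 CPM, and the part of these lists in the result was not tested.

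Of 9 cardiac markers listed, 6 were among the genes tested, and their mean level over all libraries was 159 CPM for Actc1, the actin of heart and developing muscle, 16.99 CPM for Myh6 and 5.90 CPM for Tnnt2. The summed level of the list differed between groups, from 43.9 ± 15.0 CPM in MRL/MpJ 1-day injured joints to 1090 ± 185 CPM in C57BL/6 2-weeks injured joints (SD, n = 5 each), and at 0-day it was 131 ± 34.8 CPM in STR/ort, below the means of Myh7, Myl2 and Tnnt1. Myh6 was higher in STR/ort than in MRL/MpJ at 0-day by 2.14 ± 0.28 (adjusted p = 1.08e-05), close to Myh7. Actc1 was lower in STR/ort than in C57BL/6 at 0-day by 2.56 ± 0.21 on the log2 scale. The list summed to 99.8 to 175 CPM in STR/ort at 0-day, 62.3 to 84.2 CPM in MRL/MpJ and 256 to 460 CPM in C57BL/6. Its part in the member values was not tested.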

How the data were processed

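Knee joint RNA from 100 mouse joints was sequenced. The authors aligned reads with TopHat2 2.0.11 to mm10 and counted them per gene with featureCounts of the Rsubread package over RefSeq genes (strand setting and treatment of reads with several matches not given in the sources used here), and the deposited values were raw counts per gene. Of 17313 rows 3 repeats were dropped, 24 gene names had been turned into dates, and 17310 genes were tested, since a minimum of 2 counts in 5 libraries removed 0. Totals ran from 6182016 to 20986027 counts, and the coefficient of variation of a member within a group from 14.5% to 141%. The 190 pairs of libraries within groups held no identical pair.

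Groups were taken from the sample labels. The 2-weeks joints name the animal each pair came from, and where separate animals are not stated, p-values measure the spread between these libraries only. Counts were tested with edgeR 4.0.16 in R 4.3.3 (quasi-likelihood, TMM), with Benjamini-Hochberg adjustment over all 17310 genes. A gene was called at an adjusted p below 0.05 and a fold above 1.5. The 0-day strains were fitted together, each time point in 1 fit of strain by joint, and each strain over 0-day, 1-day and 1-week in 1 fit, for 45 comparisons and 315 tests of the members. The standard error is the log2 fold divided by the square root of F. CPM were scaled with TMM across the 100 libraries (prior count 2 on the log2 scale). Lengths were merged exons.

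The members and gene lists were chosen with earlier results of these data known. Text names the 7 members, genes among the 3 of highest mean CPM in each other list, and the 10 genes most like the members. Alternatives were DESeq2 1.42.0, RLE factors, scaling by 25 housekeeping genes, RUVg with 1 or 2 factors from these, filterByExpr or no filter, leaving out each library, and the replicate number as a block. The log2 summed CPM of 11 shared sarcomere genes as a covariate, and injured joints against 0-day, were added after seeing the data. Scripts were tested on simulated data.

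Replicate numbers mark the same animal for the pairs at 2-weeks, per the labels. At 1-day and 1-week the labels give only a number. Over genes, deviations from group means had r of 0.102 to 0.231 in the 4 STR/ort pairs at 1-week. In C57BL/6 at 1-week r was -0.022 to 0.269. As labelled pairs of MRL/MpJ at 2-weeks gave -0.161 to 0.076, r does not tell whether joints were paired. Figures were drawn with matplotlib 3.10.9.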

Additional observations from a re-analysis of the deposited data

Results flagged for a closer look

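In 26 of 147 combinations of a member and a group (17.7%), the highest or lowest library stood far from the rest of its group by Dixon's test. Chance flags about 1 in 20 independent groups of normal values, but the members move together within a library and the values are linear CPM, so the share was not tested against that figure. The 26 values fell in 10 libraries, and 25 were the highest of their group.

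STR/ort 1-day injured replicate 5 stood high for all 7 members: Myh7 at 373 CPM, Myl2 at 221.7, Myl3 at 107.3, Tnnc1 at 95.38, Tnni1 at 33.27, Tnnt1 at 295.5 and Myoz2 at 60.31 CPM. STR/ort 2-weeks injured replicate 3 stood high for 6 members, with Myh7 at 537.1 CPM, Myl2 at 191.6, Myl3 at 197.2, Tnnc1 at 108.3, Tnni1 at 82.6 and Tnnt1 at 240.8 CPM. These 2 libraries held 13 of the 26 values.

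In MRL/MpJ 0-day replicate 1, Myh7 (106.2 CPM), Myl2 (71.88 CPM) and Tnnc1 (27.06 CPM) stood high. In MRL/MpJ 2-weeks injured replicate 4, Tnnc1 (37.67 CPM), Tnni1 (32.57 CPM) and Myoz2 (62.94 CPM) did, and in MRL/MpJ 1-day contralateral replicate 2, Tnnt1 (116.8 CPM) and Myoz2 (72.51 CPM). Single high values were Myh7 at 66.07 CPM in STR/ort 1-week injured replicate 4, Myl3 at 98.17 CPM in STR/ort 1-day contralateral replicate 4, Tnnt1 at 34.79 CPM in C57BL/6 0-day replicate 3 and Myoz2 at 86.01 CPM in C57BL/6 1-week contralateral replicate 2. The 1 low value was Tnnc1 at 4.119 CPM in C57BL/6 1-week injured replicate 5.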

How the results depend on the processing

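A called gene counted as unchanged if it stayed called with the same sign. An uncalled gene counted as unchanged if it stayed uncalled, whatever its sign. Of the 315 member tests, 315 were unchanged under filterByExpr and without a filter, and 314 with RLE factors. The count was 311 with DESeq2, 311 with housekeeping scaling, 288 and 274 with RUVg with 1 and 2 factors, and 268 with the muscle covariate. The cause of a change was not tested. The depth of single libraries limits Tnni1 most, which had as few as 4 counts.

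With the muscle covariate the member count became 0 for STR/ort against C57BL/6 and C57BL/6 against MRL/MpJ at 0-day, for C57BL/6 against MRL/MpJ contralateral 1-day, for STR/ort against C57BL/6 contralateral 1-week, for STR/ort contralateral 1-day and 1-week against 0-day, and for STR/ort injured 1-day and 1-week against 0-day. It became 2 for C57BL/6 injury at 1-week, 1 for STR/ort injury at 1-week, 2 for STR/ort against MRL/MpJ contralateral 2-weeks, 1 for STR/ort injured 1-week against 1-day and 1 for C57BL/6 injured 1-day against 0-day. RUVg with 2 factors gave 1 for STR/ort against C57BL/6 at 0-day, 3 for C57BL/6 and 1 for STR/ort injury at 1-week, 5 for STR/ort injured 1-week against 1-day, and 0 for C57BL/6 against MRL/MpJ at 0-day and STR/ort against MRL/MpJ contralateral 2-weeks. RUVg with 1 factor gave 2 for the latter and 5 for STR/ort injured 1-week against 1-day. With 1 and with 2 factors the count was 0 for C57BL/6 against MRL/MpJ contralateral 1-day, STR/ort against C57BL/6 contralateral 1-week, C57BL/6 injured 1-week against 1-day, and STR/ort contralateral and injured joints against 0-day at 1-day and 1-week. Housekeeping scaling gave 1 for STR/ort injured 1-week against 1-day and 1 for C57BL/6 injured 1-day against 0-day, and DESeq2 gave 2 for STR/ort injured 1-day against 0-day.

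Among called genes, signs turned in 3 alternatives. Where the covariate turned a sign, the shared sarcomere sum did not overlap between the groups, so group and sum cannot be told apart there. For C57BL/6 against MRL/MpJ at 0-day, RUVg with 2 factors gave log2 folds of 0.305 for Myl3, 0.305 for Tnnc1 and 0.281 for Myoz2, and the covariate 0.391 for Tnnc1 and 0.525 for Myoz2. Myoz2 in STR/ort against MRL/MpJ contralateral 1-week gave 0.633, 1.09 and 0.357 (RUVg with 1 factor, with 2, covariate), in STR/ort against C57BL/6 0.079 (2 factors), in STR/ort contralateral 1-day against 0-day 0.264, 0.233 and 0.426, and at 1-week 0.117 (covariate). For STR/ort injured 1-day against 0-day the 3 values were 0.64, 0.951 and 1.134 for Myl3, 1.542, 1.68 and 1.565 for Tnni1, 0.935, 1.031 and 1.065 for Tnnt1, and 0.229, 0.368 and 0.684 for Myoz2. For STR/ort injured 1-week against 0-day they were 0.83, 0.901 and 1.756 for Tnni1 and 0.431, 0.511 and 1.247 for Tnnt1, with 0.005 and 1.114 (2 factors, covariate) for Tnnc1, and covariate values of 0.645 for Myh7, 0.473 for Myl2 and 0.14 for Myoz2.

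Leaving out 1 library gave member counts of 7 to 7 for STR/ort at 0-day against either strain, 3 to 5 for C57BL/6 against MRL/MpJ, 0 to 6 for STR/ort injury at 1-day, 5 to 7 for C57BL/6 and 1 to 6 for STR/ort injury at 1-week, and 0 to 1 for STR/ort injury at 2-weeks. In contralateral joints the strain counts ran from 3 to 6, 3 to 7 and 1 to 3 at 1-day (STR/ort against MRL/MpJ, against C57BL/6, and C57BL/6 against MRL/MpJ), 1 to 5, 1 to 1 and 2 to 4 at 1-week, and 0 to 2, 0 to 3 and 0 to 0 at 2-weeks. Against 0-day they ran from 7 to 7 for C57BL/6 contralateral 1-week, 0 to 3 and 1 to 4 for STR/ort contralateral 1-day and 1-week, 1 to 7 and 5 to 7 for STR/ort injured 1-day and 1-week, and 0 to 1 for C57BL/6 injured 1-day, and for injured 1-week against 1-day from 0 to 1 in C57BL/6 and 0 to 3 in STR/ort. In every other comparison the range was 0 to 0.

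With the replicate number as a block, 123 of 126 member tests were unchanged. That fit left out injured replicate 5 of MRL/MpJ and STR/ort at 1-week, whose number had no contralateral joint. The 3 that passed were in the injury response at 1-week, where the count was 2 for STR/ort against MRL/MpJ and 1 for STR/ort against C57BL/6. Pairs at 2-weeks came from the same animal (r of -0.161 to 0.262), and whether those at 1-day and 1-week did is not stated.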
